A study of Mus musculus with 4 samples.

Results

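Levels of 6 serpin genes, Serpinb1a (ENSMUSG00000044734), Serpina3n (ENSMUSG00000021091), Serpine2 (ENSMUSG00000026249), Serpinf1 (ENSMUSG00000000753), Serping1 (ENSMUSG00000023224) and Serpinb6a (ENSMUSG00000060147), were followed on tissue sections of the infarcted mouse heart. They are 6 of the 62 genes whose symbol starts with Serpin, among 21885 genes in all, and were chosen by their measured levels across sections and across spots that differ in cardiomyocyte RNA. Those 2 contrasts are therefore described without a test of the members. The members were tested between spots rich and poor in fibroblast, border or resting fibroblast markers within strata of cardiomyocyte share, while other genes and marker lists were tested between zones as well. Spatial transcriptomics (Visium, a grid of spots that each cover several cells) was run on hearts of Collagen1a1-GFP+ mice aged 8 to 12 weeks, in which a collagen promoter drives the green reporter that marks fibroblasts. The control heart was healthy, and infarction was induced in the other hearts by tying off the left anterior descending coronary artery. A single 10 µm section per heart gave 1 control section, 1 section at 3 days post-infarction (3 dpi) and 2 sections at 5 dpi, called 5 dpi-F and 5 dpi-M here after their labels, female and male. The control and 3 dpi hearts carried the female label.

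Serpins are proteins that expose a loop as bait for a protease. In the inhibitory members the protease cuts the loop and stays trapped in a complex with the serpin, so each molecule is used once. Some members have lost this activity and act as signals or chaperones. In the injured heart, proteases released by blood-borne cells, by clotting and by complement meet these inhibitors while dead muscle is cleared and a collagen scar is laid down. Serpina3n, the mouse counterpart of antichymotrypsin, is a secreted acute phase protein. Serpine2, protease nexin, holds thrombin and plasminogen activators at the cell surface. Serpinf1, pigment epithelium-derived factor, is secreted, restrains vessel growth and does not inhibit proteases. Serping1 is the plasma inhibitor of the first complement proteases and of kallikrein. Serpinb1a and Serpinb6a stay inside the cell and act on neutrophil proteases and on cathepsin G.

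Because several of these genes were high in the same zones, the 250 bases upstream of their annotated starts are shown with the motifs that were searched. RefSeq windows (GRCm38.p6) matched 4 of the 6 members in 5 windows, and those of Serpinb1a and Serping1 were missing. Capitals mark a motif match on either strand, and each sequence runs 5′ to 3′ on the strand of its gene.
Serpina3n, chr12:104406458-104406707, plus strand: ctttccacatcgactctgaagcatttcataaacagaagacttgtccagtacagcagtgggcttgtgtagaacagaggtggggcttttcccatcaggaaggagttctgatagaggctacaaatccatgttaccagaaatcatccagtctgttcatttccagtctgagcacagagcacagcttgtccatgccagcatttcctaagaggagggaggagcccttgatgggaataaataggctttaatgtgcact
Serpinf1, chr11:75422624-75422873, minus strand: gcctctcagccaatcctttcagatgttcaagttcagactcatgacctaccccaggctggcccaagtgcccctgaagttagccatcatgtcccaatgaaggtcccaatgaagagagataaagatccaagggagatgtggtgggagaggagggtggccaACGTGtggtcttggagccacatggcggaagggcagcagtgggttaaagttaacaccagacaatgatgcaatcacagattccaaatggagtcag
Serpinb6a, chr13:34002795-34003044, minus strand: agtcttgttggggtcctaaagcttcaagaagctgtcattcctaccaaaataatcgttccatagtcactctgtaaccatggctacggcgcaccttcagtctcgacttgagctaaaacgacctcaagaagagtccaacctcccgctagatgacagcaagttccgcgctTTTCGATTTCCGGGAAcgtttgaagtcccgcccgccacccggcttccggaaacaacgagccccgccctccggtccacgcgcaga
Serpine2, chr1:79858666-79858915, minus strand: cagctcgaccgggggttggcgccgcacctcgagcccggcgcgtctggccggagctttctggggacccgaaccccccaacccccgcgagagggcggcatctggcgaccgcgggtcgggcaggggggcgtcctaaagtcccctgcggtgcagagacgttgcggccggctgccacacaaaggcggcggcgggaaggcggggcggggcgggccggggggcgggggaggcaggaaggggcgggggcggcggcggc
The second Serpinb6a window, at chr13:33936084-33936333, held no match. The motifs were AP-1 (TGANTCA), STAT (TTCNNNGAA), the interferon element ISRE (2 copies of GAAA set 2 bases apart), the hypoxia core ACGTG, the TATA box (TATAAA) and kappaB, which is given by name. Serpinb6a held 1 STAT match and 1 ISRE match, which overlap in its run of capitals, and Serpinf1 held 1 hypoxia core. The windows of Serpina3n and Serpine2 held none of these letters. Among 32851 promoter windows of the same length, 7.02% held the STAT motif, 2.98% the ISRE and 16.6% the hypoxia core, against 6.75% for AP-1, 12.4% for the TATA box and 3.90% for kappaB. GC content was 46.4% in the Serpina3n window and 78.8% in that of Serpine2. No motif was shared by the windows shown.

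After filtering, 1146 to 1741 spots per section were kept, with 3742105 to 9540940 UMIs outside mitochondrially encoded genes. Levels are given as CPM, each gene's UMIs as a share of all these UMIs, on one common scale for the sections. Intervals are exact 95% Poisson intervals and cover counting error only. The sections held heart muscle, with 12 cardiomyocyte markers at 101295 CPM in the control. Y-linked genes gave 704 UMIs in 5 dpi-F and 1 in 5 dpi-M, which goes against these labels, and the letters stand for the labels alone. Control and 3 dpi have no replicate section.

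Across sections, 5 of the 6 serpins were at least 2-fold higher than the control in each of the 3 infarcted sections, as were 24.6% of 9304 genes at 10 CPM or more. Serpina3n differed most, from 2.14 CPM in the control (8 UMIs, interval 0.923 to 4.21) to 61.0 CPM at 3 dpi and 244 and 199.6 CPM in 5 dpi-F and 5 dpi-M. Its ratio to the control was 28.5 at 3 dpi (interval 14.4 to 66.5), 114 in 5 dpi-F (57.9 to 265) and 93.4 in 5 dpi-M (47.3 to 217). Serpinb1a was at 6.41 CPM in the control (24 UMIs), 85.6 CPM at 3 dpi, and it reached 275 and 235 CPM in the later sections. Serpinb1a was 13.3-fold above the control at 3 dpi (interval 8.90 to 21.0) and 42.9-fold and 36.7-fold at 5 dpi. These genes had few UMIs in the healthy heart, so their ratios carry wide intervals.

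Serpine2 was at 24.6 CPM in the control, 75.3 CPM at 3 dpi, 238 CPM in 5 dpi-F and 176 CPM in 5 dpi-M, a ratio of 3.06 at 3 dpi (interval 2.46 to 3.86). Serpinf1 was at 36.3 CPM in the control, 174 CPM at 3 dpi, 447 CPM in 5 dpi-F and 318 CPM in 5 dpi-M, 4.77-fold (4.002 to 5.73) above the control at 3 dpi. For these members, as for Serpinb1a and Serpina3n, both 5 dpi sections were above the 3 dpi section. Serpinb6a was at 116 CPM in the control, 313 CPM at 3 dpi, 389 CPM in 5 dpi-F and 371.5 CPM in 5 dpi-M, with a 5 dpi mean of 380.1 ± 12.1 CPM (SD, n = 2). With TMM factors, which scale each section to the bulk of its genes, its log2 ratio at 3 dpi went from 1.43 to 0.996, just under a 2-fold difference, and 4 of 6 members stayed past it. Serping1 was the exception. Its control level of 149 CPM (558 UMIs) lay beside 147 CPM at 3 dpi, a ratio of 0.989 (interval 0.894 to 1.09), and 5 dpi was at 299 and 285 CPM. The 5 dpi mean was 292 ± 10.0 CPM (SD, n = 2). With TMM factors the Serping1 log2 ratio was −0.45 at 3 dpi and 0.53 and 0.58 at 5 dpi, below the control at 3 dpi. With all UMIs as the denominator, mitochondrial ones included, it was 0.38 at 3 dpi, so its direction there depended on the denominator. In these sections fewer cells of a type and less RNA per cell cannot be told apart.

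Spots were then divided by cardiomyocyte markers. The infarct zone (IZ) held the connected spots with a low share of these markers, border zones BZ2 and BZ1 lay next to it and farther out, and the remaining muscle was the remote zone (RZ). In each of the 3 infarcted sections, 4 of the 6 serpins had a higher level in IZ than in RZ, which was so for 57.8% of 9705 genes at 10 CPM or more. Serpinb1a had the steepest step: at 3 dpi it was at 13.5 CPM in RZ, 36.0 in BZ1, 69.0 in BZ2 and 115 CPM in IZ. In 5 dpi-F the same zones were at 50.1, 104, 333 and 303 CPM, and in 5 dpi-M at 39.5, 68.7, 216 and 353 CPM. IZ exceeded RZ by a mean log2 of 2.95 ± 0.31 (SD, n = 3), and BZ2 exceeded RZ by 2.51 ± 0.20. With a stricter IZ limit of 0.33 the mean IZ difference was 1.905. Most of the difference lay between RZ and BZ2, and in 5 dpi-F BZ2 was above IZ.

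Serpine2 and Serpinf1 went with Serpinb1a at smaller size. Serpine2 was at 34.6 CPM in RZ and 94.8 CPM in IZ at 3 dpi, at 83.6 and 257 CPM in 5 dpi-F and at 56.0 and 246 CPM in 5 dpi-M. Its mean log2 difference was 1.74 ± 0.36 (SD, n = 3), and its BZ2 level of 260 CPM (259.5) in 5 dpi-F was close to that of IZ. Serpinf1 was at 88.1 and 202 CPM in RZ and IZ at 3 dpi, 155 and 493 CPM in 5 dpi-F and 88.6 and 459 CPM in 5 dpi-M. Its mean log2 difference was 1.75 ± 0.59, with BZ1 and BZ2 between RZ and IZ in 3 of 3 sections. Serpinb6a had the most even RZ levels, 193, 189 and 193 CPM, and IZ levels of 369, 427 and 494 CPM, a mean log2 difference of 1.16 ± 0.21. These RZ levels of Serpinb6a lay above its 116 CPM in the control, and the RZ levels of Serpinb1a above its 6.41 CPM.

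Serpina3n and Serping1 did not keep 1 direction. Serpina3n was at 73.0 CPM in RZ and 54.9 CPM in IZ at 3 dpi, at 149 and 253 CPM in 5 dpi-F and at 54.4 and 300.5 CPM in 5 dpi-M. Its log2 ratio of IZ over RZ was −0.41, 0.76 and 2.47, so the SD of 1.45 exceeded the mean of 0.94. Its RZ and IZ levels at 3 dpi were both above the control level of 2.14 CPM. Serping1 was at 204 CPM in RZ and 115 CPM in IZ at 3 dpi, at 227 and 311 CPM in 5 dpi-F and at 152 and 373 CPM in 5 dpi-M. Its log2 ratios were −0.82, 0.46 and 1.29, with a mean of 0.31 ± 1.07 (SD, n = 3). With all UMIs as the denominator 5 of 6 members were higher in IZ in each section. That denominator raises IZ over RZ by the same log2 amount for every gene of a section. The share over all genes was not counted on it. Serpina3n then turned at 3 dpi, to a log2 ratio of 0.13, while Serping1 stayed lower there at −0.28.

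**Figure D1:**
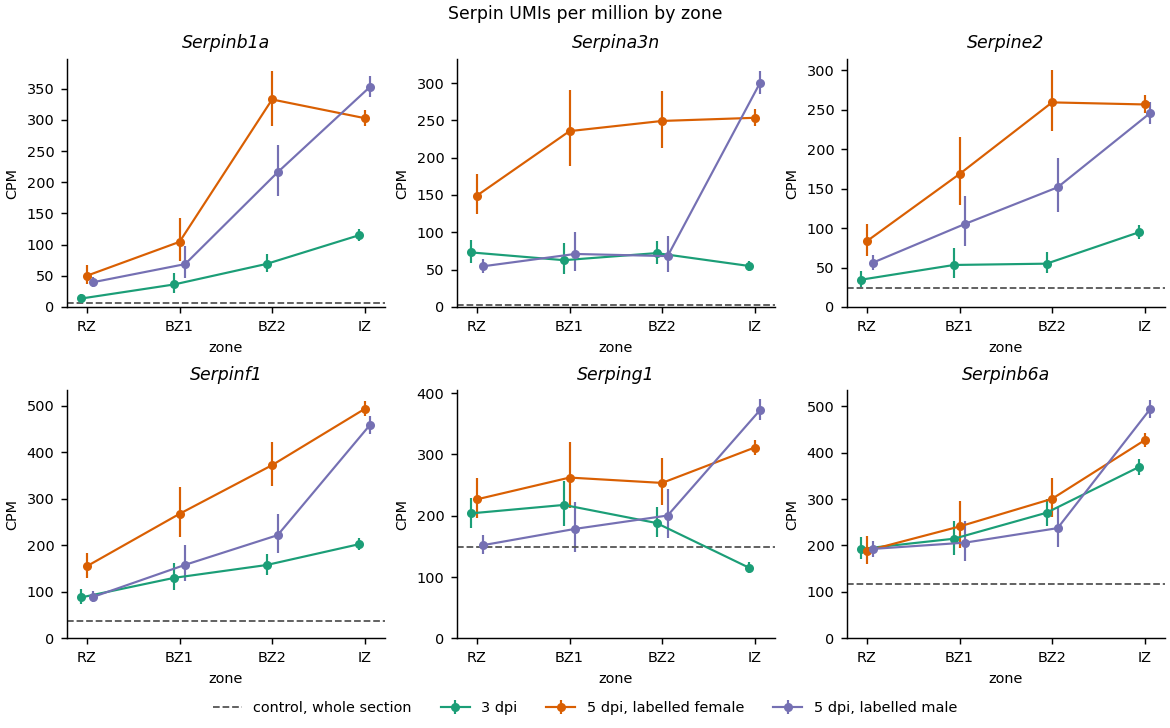
Levels of the 6 serpins in CPM (vertical axes, linear from 0) by zone for the 3 infarcted sections, with exact 95% Poisson intervals as bars and the control section as a dashed line. Serpinb1a, Serpine2, Serpinf1 and Serpinb6a are higher in IZ than in RZ in every section, while Serpina3n and Serping1 are lower in IZ at 3 dpi on this scale, a direction that turns for Serpina3n when mitochondrial UMIs enter the denominator.

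The zones hold many cell types. Between IZ and RZ, 8 of 8 macrophage markers, 5 of 6 fibroblast markers and 3 of 3 tested neutrophil markers were higher in IZ (quasi-likelihood test of edgeR, p adjusted by Benjamini-Hochberg over all genes, which called 53.8% of 9444 genes, 26.8% higher and 27% lower). Summed fibroblast markers went from 2797 to 3958 CPM in RZ to 12930 to 24033 CPM in IZ, and summed macrophage markers from 1478 to 1938 CPM to 7089 to 11176 CPM. Lower in IZ were 12 of 12 cardiomyocyte, 5 of 7 border cardiomyocyte, 5 of 6 endothelial, 4 of 4 erythroid, 3 of 5 mural and 3 of 6 resting fibroblast markers, while 1 mural and 1 resting fibroblast marker were higher. The summed border cardiomyocyte markers were nevertheless higher in IZ at 3 dpi, at 15536 against 7830 CPM. IZ was drawn by a low share of the 12 cardiomyocyte markers, so their lower level there was set in advance. These fold changes were fitted after TMM scaling, which moved every gene by −0.42 on the log2 scale relative to CPM. The part of these markers in the serpin levels was not tested.

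Levels by the cardiomyocyte share of a spot, relative to the 90th percentile of its section, resolved the IZ further. Serpinb1a was highest in spots with 0.125 to 0.25 of that percentile, at 157.5 CPM at 3 dpi, 652 CPM in 5 dpi-F and 798 CPM in 5 dpi-M. Where cardiomyocyte RNA was nearly gone, under 0.125, it was at 76.9, 214 and 191 CPM, and in spots at 0.75 and over it was at 20.5, 68.3 and 35.4 CPM. The gene peaked where some cardiomyocyte RNA was left, in 3 of 3 sections. Serpine2 had the same middle peak, at 111 CPM (0.125 to 0.25) at 3 dpi and at 389 and 358 CPM (0.25 to 0.5) at 5 dpi, against 78.8, 225 and 206 CPM under 0.125. Serpinf1 peaked at 224, 629.5 and 523 CPM between 0.125 and 0.25, against 186, 470 (470.2) and 453.5 CPM under 0.125. Serpinb6a differed from them. It was at 429, 439 and 519 CPM under 0.125 and at 191, 195 and 186 CPM at 0.75 and over, with a highest band between 0.125 and 0.25 in 5 dpi-F (449 CPM). Serpina3n had its highest level in 5 dpi-M, 340 CPM (339.9), under 0.125, and its level at 3 dpi stayed between 50.1 and 78.2 CPM in every band. Serping1 at 3 dpi was at 92.9 CPM under 0.125 and 201 CPM from 0.5 to 0.75, whereas at 5 dpi it was at 292.5 and 396 CPM under 0.125 and 253 and 180.5 CPM from 0.5 to 0.75.

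**Figure D2:**
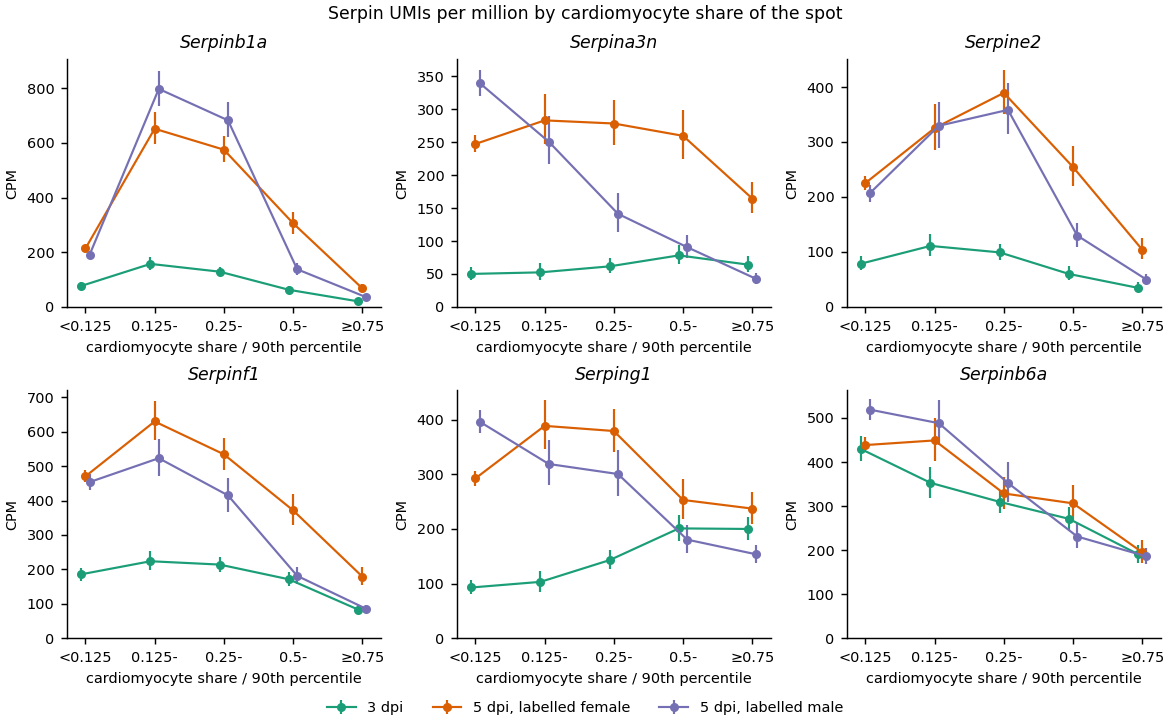
Serpin levels in CPM (linear axes from 0) by cardiomyocyte share of the spot, as a fraction of the 90th percentile of its section, with 95% Poisson intervals. Serpinb1a, Serpine2 and Serpinf1 peak in the middle bands in the 3 sections, and Serping1 is lowest in the band under 0.125 at 3 dpi but not at 5 dpi.

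Levels were also read by distance from the IZ edge, counted in spot steps. That edge is set by cardiomyocyte share, so these values are no separate support for those by share. Serpinb1a was highest 1 to 2 or 3 to 4 steps inside the edge, at 147, 496 and 508.5 CPM, which is 10.8, 9.90 and 12.9 times its lowest level, more than 4 steps outside. Serpine2 was highest 1 to 2 steps inside in each section, at 99.9, 377 and 382 CPM. Serpinb6a was lowest more than 4 steps outside, at 193, 189 and 193 CPM, and highest deep inside at 3 dpi and in 5 dpi-M, at 400.4 and 510.3 CPM. In 5 dpi-F its highest level, 456 CPM, was 3 to 4 steps inside. Serpina3n and Serping1 were highest outside the IZ at 3 dpi, at 73.0 CPM more than 4 steps out and 218 CPM 3 to 4 steps out, and lowest inside it, at 40.3 and 88.4 CPM. At 5 dpi both were lowest more than 4 steps outside and highest inside, at 264 and 331 CPM for Serpina3n and 477 and 406 CPM for Serping1.

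The core of the IZ (more than 4 steps inside) was also set against its rim (1 to 2 steps inside). Core and rim differ in cardiomyocyte RNA, 12462 against 31285 CPM at 3 dpi, 3506 against 22900.5 CPM in 5 dpi-F and 5412 against 29542 CPM in 5 dpi-M, so this contrast is not independent of the choice of members and no test of them is given. Serpinb1a was at 91.6 CPM in the core and 118 CPM in the rim at 3 dpi, 278 and 496 CPM in 5 dpi-F and 318 and 508 CPM in 5 dpi-M. Serpine2 was lower in the core in 3 of 3 sections, at 88.9 against 99.9, 227 against 377 and 219 against 382 CPM. Serpinf1 was lower there too, with log2 ratios of −0.41, −0.40 and −0.16. Serpinb6a was higher in the core in each section, with log2 ratios of 0.26, 0.28 and 0.35. Serpina3n was at 331 CPM in the core and 139 CPM in the rim of 5 dpi-M, whereas the other 2 sections had log2 ratios of −0.33 and −0.06. Serping1 was lower in the core at 3 dpi and in 5 dpi-F, by log2 values of −0.76 and −0.87, and higher in 5 dpi-M by 0.20. Of the neutrophil markers, 3 of 3 tested were higher in the core, in a test that called 18.1% of 10473 genes, 6.5% higher and 11.6% lower, and summed to 469 against 104, 285 against 83.8 and 258 against 76.1 CPM. Macrophage markers were higher in 4 of 8, at 8362 against 5582, 11622 against 7100 (7099.55) and 11509 against 5241 CPM summed. Of the lymphocyte markers, 1 of 2 tested was higher. Lower in the core were 12 of 12 cardiomyocyte markers, 7 of 7 border cardiomyocyte markers (12554 against 21580, 6097 against 17539 and 9374 against 29987 CPM) and 3 of 5 mural markers (262 against 338, 342 against 605 and 422 against 527 CPM). So were 2 of 6 resting fibroblast markers (1969 against 2098, 2694 against 5469 and 2944 against 4857 CPM), 2 of 6 endothelial markers (1706 against 1573, 798 against 1411 and 1189 against 1542 CPM), 1 of 6 fibroblast markers and 1 of 3 tested mesothelial markers. Their part in the serpin values was not tested.

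**Figure D3:**
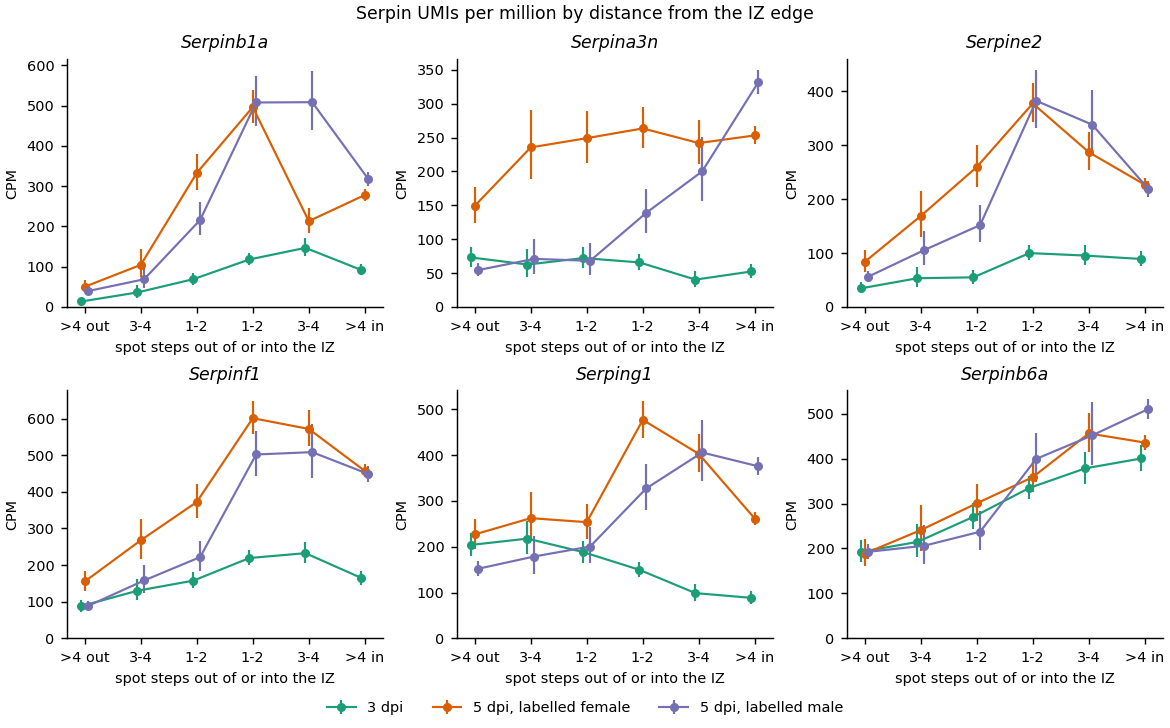
Serpin levels in CPM (linear axes from 0) by distance in spot steps from more than 4 outside the IZ edge, at the left, to more than 4 inside, at the right, with 95% Poisson intervals. Serpinb1a and Serpine2 peak just inside the edge, and Serpinb6a is lowest outside in each section.

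**Figure D4:**
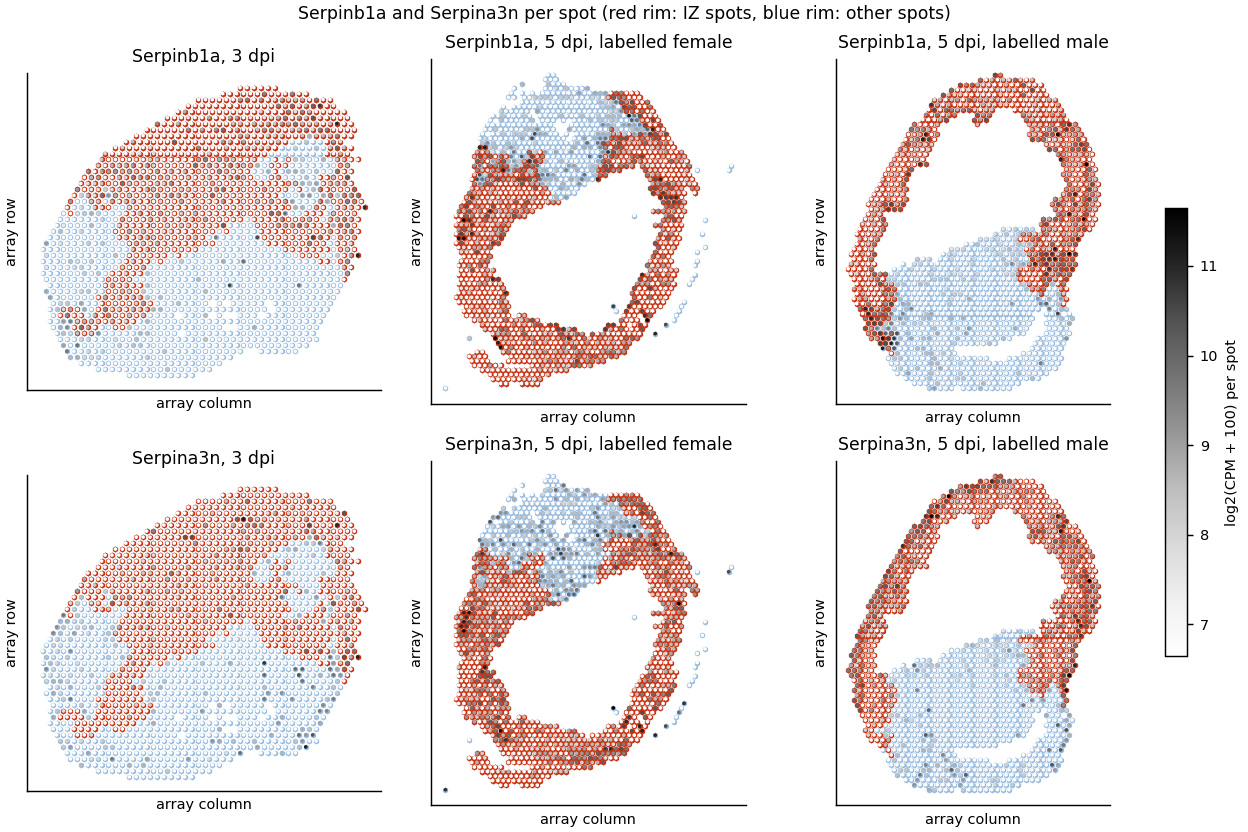
Spots of the 3 infarcted sections at their array row and column, shaded by log2(CPM + 100) of Serpinb1a (top row) and Serpina3n (bottom row), with IZ spots rimmed in red and other spots in blue. Dark Serpinb1a spots gather near the IZ edge, while in 5 dpi-M Serpina3n is darker in the IZ than outside it.

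To ask which cell types the serpins go with, IZ spots were ranked by fibroblast markers (Col1a1, Col1a2, Col3a1, Pdgfra, Lum and Postn) within 5 strata of cardiomyocyte share per section. The richest and the poorest of 3 equal parts were compared. The strata narrowed the difference in cardiomyocyte RNA and did not remove it, with 19360 CPM in rich against 21309 CPM in poor spots at 3 dpi, 5594 against 8133 CPM in 5 dpi-F and 7851 against 9714 CPM in 5 dpi-M. The members were chosen on such a difference, so their values with 5 strata are a description. Serpinf1 was at 251.5 CPM in fibroblast-rich and 157 CPM in fibroblast-poor spots at 3 dpi, at 666 and 361 CPM in 5 dpi-F and at 614 and 346 CPM in 5 dpi-M. Serping1 was at 144 and 92.2, 396 and 247, and 414 and 288 CPM. Serpine2 was at 108 and 86.3, 310 (309.6) and 199.5, and 323 and 213 CPM. All 3 genes were higher in the fibroblast-rich spots of each section.

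The members were tested with 20 strata, an alternative added after seeing the data, in which the difference in cardiomyocyte RNA was −9.57% at 3 dpi, −13.0% in 5 dpi-F and −3.82% in 5 dpi-M. At 3 dpi this was no smaller than with 5 strata (−9.14%). That remainder was not removed from the test, which is therefore not independent of the choice of members. Of the 6 serpins, 3 were higher in fibroblast-rich spots and 0 lower, where 5.51% of 10150 genes were called, 3.66% higher and 1.85% lower. Serpinf1 was at 250.1 and 164, 665 and 363, and 599 and 355 CPM, a log2 fold change of 0.76 (SE 0.08, edgeR adjusted p 4.97e-06, higher in 3 of 3 sections). Serping1 had a log2 fold change of 0.62 (SE 0.08, edgeR adjusted p 1.01e-04, 3 of 3). Serpine2 had one of 0.52 (SE 0.09, edgeR adjusted p 0.00179, 3 of 3), and that call ended without 5 dpi-F (adjusted p 0.152). The other 2 calls held without each section in turn, and all 3 held with DESeq2 (adjusted p 1.33e-07, 3.57e-04 and 0.0356).

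Serpina3n did not pass (log2 0.13, SE 0.14, edgeR adjusted p 0.721). It was at 81.0 CPM in fibroblast-rich and 36.8 CPM in fibroblast-poor spots at 3 dpi, 247 and 242 CPM in 5 dpi-F and 239 and 274 CPM in 5 dpi-M, so the sections went different ways. Serpinb1a had a log2 fold change of −0.017 (SE 0.09, adjusted p 0.955) and Serpinb6a of 0.013 (SE 0.07, adjusted p 0.959). With 5 strata the test called 7.19% of 10193 genes, 4.64% higher and 2.55% lower. Fibroblast-rich spots also had less hemoglobin RNA there, with 4 of 4 erythroid markers lower (1673 against 6353, 9632 against 43100 and 10514 against 10716 CPM summed), and 8 of 12 cardiomyocyte markers lower. Resting fibroblast markers were higher in 3 of 6 (2110 against 1778, 3342 against 2903 and 3433 against 2865 CPM summed), and mural markers in 2 of 5 (325 against 288, 463 against 334 and 504 against 375 CPM). Of the mesothelial markers, 1 of 2 tested was higher. Lower were 4 of 7 border cardiomyocyte markers (13536 against 17865, 6184 against 9110 and 10222 against 14775 CPM), 1 of 8 macrophage markers and 2 of 3 tested neutrophil markers (219 against 362, 171 against 339 and 225 against 224 CPM). The part of these markers in the serpin differences was not tested. Without the section as a block, no member passed in this test, with 5 or 20 strata, or in the border and resting fibroblast tests. With strata of distance in place of cardiomyocyte share, also added after seeing the data, Serpinf1, Serping1 and Serpine2 differed by log2 values of 0.77, 0.57 and 0.41.

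Macrophage markers (Cd68, Adgre1, C1qa, C1qb, C1qc, Csf1r, Lyz2 and Fcgr1) were used in the same way. The 5 strata left the classes unequal in cardiomyocyte RNA, with 17136 CPM in macrophage-rich against 22804 CPM in macrophage-poor spots at 3 dpi, 4587 against 9236 CPM in 5 dpi-F and 7163 against 9949 CPM in 5 dpi-M. With 20 strata the difference was still −20.2%, −32.7% and −7.55%. The members were chosen on such a difference, so their values are given here as a description, with no test. Serpinb1a was at 76.4 CPM in macrophage-rich and 152 CPM in macrophage-poor spots at 3 dpi, at 213 and 403 CPM in 5 dpi-F and at 309 and 406 CPM in 5 dpi-M. Serpine2 was at 74.4 and 104, 227 and 301, and 206 and 271 CPM. Both genes were lower in the macrophage-rich spots of 3 of 3 sections.

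Serping1 was at 116 and 113 CPM at 3 dpi, 365 and 288 CPM in 5 dpi-F and 467 and 263 CPM in 5 dpi-M. Serpina3n was at 48.5 and 62.8 CPM at 3 dpi, 280 (279.8) and 222 CPM in 5 dpi-F and 414 and 187 CPM in 5 dpi-M. For both genes 5 dpi-M had the widest step. Over all genes the test called 15% of 10109, 8.37% higher and 6.6% lower in macrophage-rich spots. Among the marker lists, 11 of 12 cardiomyocyte and 3 of 6 endothelial markers were lower. So were 7 of 7 border cardiomyocyte markers, at 11871 against 18781 CPM summed at 3 dpi and 3987 against 11599 and 8048 against 14568 CPM at 5 dpi. Higher were 3 of 6 resting fibroblast markers, which summed to 1962 against 1821 CPM at 3 dpi, 3052 against 3220 CPM in 5 dpi-F and 3614 against 2734 CPM in 5 dpi-M. The fit also called 4 of 4 erythroid markers lower, although their sum was higher at 3 dpi (4113 against 3081 CPM) and lower at 5 dpi (10775 against 46002 and 7191 against 15201 CPM). Also higher were 1 of 3 tested neutrophil, 1 of 6 fibroblast and 1 of 5 mural markers. Another 1 of 5 mural markers and 1 of 1 tested mesothelial marker were lower. The part of these in the serpin values was not tested.

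Outside the IZ, spots were split by markers of stressed border cardiomyocytes (Nppa, Nppb, Ankrd1, Xirp2, Flnc, Myh7 and Acta1). With 5 strata cardiomyocyte RNA still differed by −8.11% at 3 dpi, −2.82% in 5 dpi-F and −7.79% in 5 dpi-M. The members were chosen on such a difference, so this test is not independent of their choice. With 5 strata 5.15% of 7784 genes were called, 1.91% higher and 3.24% lower. Of the 6 serpins 1 was higher and 1 lower in marker-rich spots. Serpinf1 was at 129 and 109 CPM at 3 dpi, 303 and 230 CPM (230.4) in 5 dpi-F and 144 and 87.9 CPM in 5 dpi-M, a log2 fold change of 0.41 (SE 0.12, edgeR adjusted p 0.0221, 3 of 3). Serping1 was at 164 and 257, 225 and 254, and 154 and 186 CPM, a log2 fold change of −0.42 (SE 0.11, adjusted p 0.00650, 3 of 3). Both calls ended with DESeq2 (adjusted p 0.198 and 0.130). Without 5 dpi-M the Serpinf1 log2 fold change was 0.30 (adjusted p 0.398), and without the 3 dpi section that of Serping1 was −0.27 (adjusted p 0.415). With 20 strata the Serpinf1 call ended (log2 0.34, edgeR adjusted p 0.0860) and that of Serping1 held (−0.40, adjusted p 0.0115). Marker-rich spots were also higher in 4 of 6 fibroblast markers and lower in 3 of 6 resting fibroblast markers. They were lower in 4 of 4 erythroid markers, at 3748 against 7415, 14214 against 38407 and 9768 against 24947 CPM summed. Of the cardiomyocyte markers 5 of 12 were lower, at 79930 against 86985, 69913 against 71942 and 73820 against 80055 CPM. The part of these in the serpin differences was not tested.

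Serpinb1a was at 55.1 and 18.5 CPM at 3 dpi, 153 and 190 CPM (189.7) in 5 dpi-F and 79.4 and 53.8 CPM in 5 dpi-M, and did not pass (log2 0.27, SE 0.17, adjusted p 0.509). It passed without 5 dpi-F, at a log2 of 0.85 (adjusted p 0.00313). Serpine2 had a log2 fold change of 0.34 (SE 0.14, adjusted p 0.205) and Serpinb6a of 0.09 (SE 0.10, adjusted p 0.766). Serpina3n was at 50.7 CPM in marker-rich and 98.98 CPM in marker-poor spots at 3 dpi, 219 and 217 CPM in 5 dpi-F and 75.6 and 42.4 CPM in 5 dpi-M. The sections thus went different ways, and its log2 fold change of −0.10 (SE 0.15, edgeR adjusted p 0.847) averages over them. Without strata it was 0.51 (adjusted p 0.0238).

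Resting fibroblast markers (Dcn, Gsn, Pdgfra, Tcf21, Mgp and Dpep1; Pdgfra is also on the fibroblast list) asked where the serpins lie in muscle away from the infarct. Spots of RZ and of the control section entered this test, which called 1.66% of 5831 genes, 1.54% higher and 0.12% lower. Cardiomyocyte RNA differed by −0.404% in the control, 0.153% at 3 dpi, −6.78% in 5 dpi-F and −0.883% in 5 dpi-M. Of the 6 serpins, 3 were higher in resting-fibroblast-rich spots. Serping1 was at 222 CPM in rich and 88.0 CPM in poor spots of the control, 284 and 143 CPM at 3 dpi, 325 and 178 CPM in 5 dpi-F and 228 and 93.0 CPM in 5 dpi-M. Its log2 fold change was 1.15 (SE 0.11, edgeR adjusted p 7.13e-11, higher in 4 of 4 sections). Serpina3n was at 3.49 and 0.752 CPM in the control, from 4 and 1 UMIs, at 119 and 41.2 CPM at 3 dpi, 206 and 83.3 CPM in 5 dpi-F and 96.4 and 36.0 CPM in 5 dpi-M. Its log2 fold change was 1.41 (SE 0.20, adjusted p 7.10e-07, 4 of 4). Both calls held with DESeq2 and without each section in turn.

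Serpine2 was at 32.3 and 17.3 CPM in the control, 35.8 and 33.9 CPM at 3 dpi, 101 and 34.1 CPM in 5 dpi-F and 65.9 and 42.2 CPM in 5 dpi-M. Its log2 fold change was 0.76 (SE 0.21, edgeR adjusted p 0.0428, 4 of 4). That call ended without the control section (adjusted p 0.262), without 5 dpi-F (0.317), without 5 dpi-M (0.315), with 20 strata (0.189) and with DESeq2 (0.9999). Serpinf1 (log2 0.43, SE 0.16, adjusted p 0.293), Serpinb6a (0.24, SE 0.11, adjusted p 0.503) and Serpinb1a (0.18, SE 0.29, adjusted p 0.938) did not pass, and Serpinb1a had only 5 to 34 UMIs per class. Of 6 fibroblast markers 5 were higher in the rich spots, while the 7 tested macrophage markers and the 12 cardiomyocyte markers did not pass. Of other markers, 1 of 5 mural and 1 of 7 border cardiomyocyte markers were higher, and 2 of 7 border cardiomyocyte and 1 of 6 endothelial markers lower. The part of these markers in the serpin differences was not tested.

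**Figure D5:**
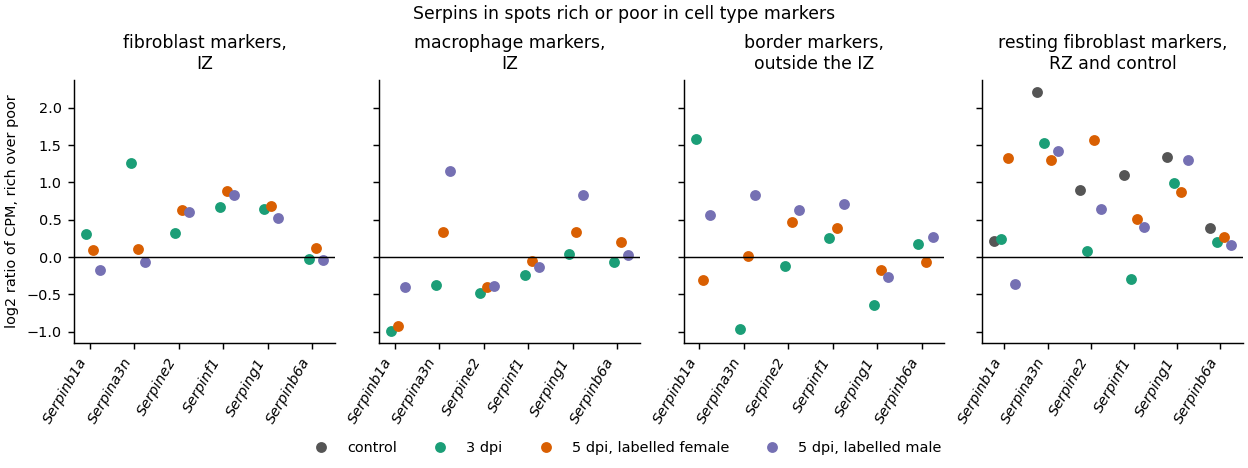
Log2 ratio of CPM between marker-rich and marker-poor spots (vertical axis, 0 for no difference) for the 6 serpins, 1 point per section, for the fibroblast, macrophage, border and resting fibroblast markers. Serpinf1, Serping1 and Serpine2 lie above 0 in every section for fibroblast markers, and Serpina3n, Serping1, Serpine2 and Serpinb6a do so for resting fibroblast markers.

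Among the 56 other serpin genes, 29 had 0 UMIs in the 4 sections. Serpinh1, the collagen chaperone Hsp47, was at 607 CPM in RZ and 2050 CPM (2050.2) in IZ at 3 dpi, 653 and 2375 CPM in 5 dpi-F and 547 and 2101 CPM in 5 dpi-M, a log2 fold change of 1.44 (SE 0.12, edgeR adjusted p 2.59e-09, 3 of 3). Serpinb9, an intracellular inhibitor of granzyme B, and Serpina3g, a relative of Serpina3n, were higher in IZ by log2 values of 1.505 (SE 0.27, adjusted p 8.40e-05) and 2.73 (SE 0.44, adjusted p 2.62e-05). Serpinb6b, a relative of Serpinb6a, was lower in IZ by a log2 of −0.96 (SE 0.21, adjusted p 7.44e-04, 3 of 3). Over all 9444 genes this test called 26.8% higher and 27% lower.

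Serpinh1 was higher in fibroblast-rich spots (log2 0.56, SE 0.06, edgeR adjusted p 2.02e-06, 3 of 3) and lower in macrophage-rich spots (log2 −0.30, SE 0.09, adjusted p 0.0140, 3 of 3). Serpinb1a, Serpinb6a and Serpina3n belong to clusters of related genes. How reads that fit several copies were counted was not checked, and their levels are uncertain to that degree.

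Of 19 target proteases listed, 4 had 0 UMIs and 4 reached 20 CPM: Plat, C1ra, C1s1 and Masp1. Plat encodes tissue plasminogen activator, a target of Serpine2, and was at 19.6 and 55.9, 62.1 and 41.2, and 39.1 and 49.4 CPM in RZ and IZ of the 3 sections. C1ra and C1s1 encode the complement proteases that Serping1 inhibits. Between IZ and RZ these 4 proteases did not pass (edgeR unadjusted p 0.882 to 0.920, adjusted p 0.913 to 0.941). C1s1 was higher in fibroblast-rich spots (log2 0.55, SE 0.16, adjusted p 0.0447) and in resting-fibroblast-rich spots (log2 1.34, SE 0.26, adjusted p 5.12e-04, 4 of 4), the same direction as Serping1. In fibroblast-rich spots C1ra was higher by 0.60 (SE 0.17, adjusted p 0.0371), and outside the IZ it was lower in border-marker-rich spots by −1.11 (SE 0.30, adjusted p 0.0124), as Serping1 was. In macrophage-rich spots C1ra (log2 0.57, SE 0.18, adjusted p 0.0283, 2 of 3) and C1s1 (0.51, SE 0.18, adjusted p 0.0458, 3 of 3) were higher. In the core C1s1 was lower by −0.68 (SE 0.21, adjusted p 0.0420, 2 of 3) and Prtn3, a neutrophil protease, higher by 3.18 (SE 0.51, adjusted p 7.38e-04, 3 of 3). RNA of the neutrophil proteases that Serpinb1a inhibits was rare, with Prtn3 at 16.1 CPM at most in a section or zone. Their protein was not measured.

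Among 4 receptors, 3 were higher in IZ and 1 lower, in a test that called 53.8% of 9444 genes, 26.8% higher and 27% lower. Lrp1, which takes up serpin and protease complexes, was higher by a log2 of 1.17 (SE 0.15, edgeR adjusted p 1.40e-06, 3 of 3), and Plaur, the urokinase receptor, by 1.61 (SE 0.31, adjusted p 1.61e-04, 3 of 3). F2r, a thrombin receptor, was higher by 0.66 (SE 0.16, adjusted p 0.00119, 3 of 3). Pnpla2, a lipase that binds the product of Serpinf1, was lower by −2.06 (SE 0.15, adjusted p 4.20e-10, 3 of 3), from 297 to 85.8, 197 to 54.9 and 168 to 69.6 CPM. The level of Serpinf1 ran the other way across these zones. IZ was drawn by its low share of cardiomyocyte RNA, and the part of that share in either level was not tested.

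The genes whose levels followed each serpin most closely were found over 13 points, the 4 zones of 3 sections and the control, among 2701 genes with a mean of 50 CPM or more. These points share sections and cardiomyocyte content, so the correlations are a description. Serpinb1a was closest to Aspn (Pearson r 0.978), Igfbp7 (0.975) and Npdc1 (0.971), and Serpine2 to Igfbp7 (0.965), Mdk (0.962) and Serpinb1a itself (0.958). Serpinf1 was closest to Bgn (0.984), Ltbp3 (0.981) and Pmepa1 (0.980), and Serpinb6a to Fkbp10 (0.991), Rcn3 (0.989) and the macrophage marker C1qb (0.986). Lower maxima were found for Serpina3n, with Col8a1 (0.929), Ltbp2 (0.924) and Adam15 (0.905), and for Serping1, with Eln (0.877), Adamtsl2 (0.875) and Igfbp4 (0.874). Among the members, Serpinb1a and Serpinf1 were the closest pair (0.9579, against 0.9576 for Serpinb1a and Serpine2) and Serping1 and Serpinb6a the least alike (0.506).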

How the data were processed

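Polyadenylated RNA was measured on Visium arrays of 4992 spots. The authors deposited unnormalized UMI counts for each gene in each spot, which came from Space Ranger (1.3.1) from an Ensembl-based mouse reference that included GFP, although the labels name mm10. No coordinates of this build are given, and promoter windows come from RefSeq GRCm38.p6. The authors picked tissue spots by hand, and 623 spots of 5 dpi-M outside that choice were left out. Spot barcodes name array positions, and 184 of 3198 occurred in all 4 sections.

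Spots under 500 UMIs, under 250 genes or over 50% mitochondrial UMIs were removed, and 13 mitochondrial genes left the denominator. IZ spots had a cardiomyocyte share under 0.5 times the 90th percentile of the section, in connected patches of 10 or more. BZ2 lay up to 2 steps away, BZ1 3 to 4 steps and RZ farther.

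UMIs were summed per class and section and compared with the quasi-likelihood test of edgeR 4.0.16 (R 4.3.3, limma 3.58.1). The fits used TMM factors, the tool's own filter on low counts, the section as a block, Benjamini-Hochberg adjustment over all genes and a threshold of 0.05. Both classes of a section come from 1 heart, which is why the section is a block. Fold changes are relative to a TMM shift of −0.42 (log2) for IZ against RZ and −0.16 for core against rim. Hearts are the replicates. Python 3.11.15 (NumPy 2.4.6, pandas 2.3.3, SciPy 1.17.1) gave CPM and intervals, and DESeq2 1.42.0 was an alternative. In simulated data, 71.6% of 2-fold and 100% of 4-fold changes were recovered for the fibroblast comparison with 5 strata (10027 genes, 191 changed), with 6.82% of calls false. For the border comparison (7482 genes, 182 changed) these were 50.5%, 98.9% and 2.16%, and for the resting fibroblast comparison (5408 genes, 182 changed) 77.7%, 100% and 3.59%. These rates describe the simulated data alone and are not error rates of the reported tests. Whether the simulated data vary between sections as the hearts do was not tested. The finer strata used for the fibroblast tests of the members were not simulated.

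The members, marker lists and gene lists were chosen with earlier results of these data known. The members are named in full, other serpins at 20 CPM or more in a section or zone, and the 3 closest genes per member. Results of 1 other serpin are not reported here. Core against rim and macrophage-rich against macrophage-poor spots were planned as tests of the members and are given as descriptions, since cardiomyocyte RNA differs between these classes. For the same reason members were tested between fibroblast-rich and fibroblast-poor spots with 20 strata in place of the planned 5. That narrowed the difference at 5 dpi and not at 3 dpi. The border and resting fibroblast tests kept 5 strata, with the differences stated there.

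Alternatives were DESeq2 and its size factors, no filter on low counts, no section block, all marked spots, an IZ limit of 0.33, 2 parts in place of 3, no strata, and each section left out. Strata of distance from the IZ edge and 20 strata of cardiomyocyte share in place of 5 were added after seeing the data.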

Additional observations from a re-analysis of the deposited data

Results flagged for a closer look

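In 5 dpi-M, 623 spots without the tissue mark entered no comparison, and their serpin levels exceeded the control section. Summed over these spots, with 2229014 UMIs outside mitochondrial genes, Serpinb1a was at 359 CPM, Serpina3n at 158 CPM, Serpine2 at 128 CPM, Serpinf1 at 339 CPM, Serping1 at 274 CPM and Serpinb6a at 376 CPM. In the control the same genes were at 6.41, 2.14, 24.6, 36.3, 149 and 116 CPM. Kept spots of 5 dpi-M itself were at 235, 199.6, 176, 318, 285 and 371.5 CPM. Against these, the unmarked spots were lower in Serpina3n, Serpine2 and Serping1 and higher in Serpinb1a, Serpinf1 and, by little, Serpinb6a. Erythroid markers in these spots summed to 65502 CPM, above the 8667 CPM of the control.

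Some members had a log2 ratio below 0 at 3 dpi and above 0 in both 5 dpi sections. The difference between times was not tested, since 3 dpi has 1 section. For IZ over RZ, the log2 ratio at 3 dpi was −0.41 for Serpina3n and −0.82 for Serping1, and with all UMIs as the denominator that of Serpina3n was 0.13. Between macrophage-rich and macrophage-poor IZ spots it was −0.37 for Serpina3n and −0.071 for Serpinb6a. In border-marker-rich spots outside the IZ it was −0.96 for Serpina3n and −0.11 for Serpine2, and in resting-fibroblast-rich spots of RZ it was −0.29 for Serpinf1. Several of these ratios lie within counting error. Serpinb6a at 3 dpi was at 359 CPM (95% Poisson interval 330 to 391) in macrophage-rich and 378 CPM (349 to 407) in macrophage-poor spots. Serpine2 at 3 dpi was at 47.2 CPM (35.5 to 61.6) in border-marker-rich and 51.1 CPM (37.6 to 68.0) in border-marker-poor spots. Serpinf1 at 3 dpi had 34 UMIs in resting-fibroblast-rich spots, 81.1 CPM (56.2 to 113), and 41 in poor spots, 99.4 CPM (71.3 to 135). Serpina3n in border-marker-rich spots of 5 dpi-F was at 219 CPM against 217 CPM.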

How the results depend on the processing

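At the level of whole sections, 5 of 6 serpins stayed at least 2-fold above the control under each other denominator and 4 with TMM factors. With sections left out in turn, 4 to 6 members had higher levels in IZ in every remaining section, 6 without the 3 dpi section. The share over all genes was not counted for these alternatives. Counts of genes called depended more on the settings. With DESeq2 they were 1047 for core against rim, 220 for fibroblast-rich, 462 for macrophage-rich, 151 for border-marker-rich and 29 for resting-fibroblast-rich spots, against 1896, 733, 1513, 401 and 97. Without the section block they were 1011, 0 (edgeR, with 696 at an unadjusted p under 0.05), 53, 2 and 3, and no member passed for fibroblast, border or resting fibroblast markers. No strata gave 2800 for macrophage, 1771 for border and 147 for resting fibroblast markers, and strata of distance, added after seeing the data, gave 2536 for macrophage and 829 for border markers. With 20 strata of cardiomyocyte share, also added then, the border count was 259. Leaving out 1 section in turn gave 1342 to 2416, 394 to 979, 854 to 1315, 142 to 416 and 48 to 122 for the 5 tests in the order above, and 4164 to 4624 for IZ against RZ.

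Of the members' fold changes, those that changed sign were for the most part near 0 and none was called at first. Leaving out sections in turn put Serpina3n in the core between −0.32 and 0.34. With fibroblast markers, Serpinb1a was at −0.0029 without the block, −0.014 without strata, −0.061 with strata of distance, −0.017 with 20 strata and −0.045 to 0.17 with sections left out. Serpinb6a was there at −0.0015 with an IZ limit of 0.33 and −0.028 to 0.055 with sections left out, and with macrophage markers at −0.0053 to 0.15 (0.153). In the fibroblast fit with 20 strata, leaving out 3 dpi turned Serpina3n from 0.13 to −0.088. Leaving out 5 dpi-F there put Serpinb1a at 0.099 and Serpinb6a at −0.037, against −0.017 and 0.013 with all sections. With border markers Serpina3n was at 0.016 with 2 parts in place of 3, 0.51 (adjusted p 0.0238) without strata, 0.25 with strata of distance and −0.39 to 0.26 with sections left out. With resting fibroblast markers Serpinb1a was at −0.078 over all marked spots and −0.16 to 0.18 with sections left out. Depth limits Serpina3n and Serpinb1a in the control, with 8 and 24 UMIs.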
